A study of Homo sapiens with 10 samples.

Results

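H3K27ac, the acetylation of histone H3 at lysine 27, was compared between 24 h of 500 nM dTAG47 and DMSO in Rh30 cells carrying PAX3-FOXO1-FKBP. Rh30 is an established human alveolar rhabdomyosarcoma line, and in all groups its PAX3-FOXO1 fusion protein bore the FKBP degron tag. dTAG47 is a ligand that brings an FKBP-tagged protein to the cell's disposal machinery, and DMSO is its solvent. The comparison used 4 of the 10 samples of the series, 2 H3K27ac libraries at 24 h and 2 in DMSO, and all 42067 peaks of the deposited count table. Libraries of 2 h and 4 h of 500 nM dTAG47, 2 each, entered the same fit and are given beside the 24 h values, and 2 DMSO input libraries were not used. The labels give no time for DMSO, so time in culture and time with dTAG47 cannot be told apart. Whether the line is a single clone is not given in the labels, nor is the level of the fusion protein after treatment. They do not say whether the libraries are from separate cultures, and the p-values measure a spread that may be technical.

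H3K27ac marks active promoters and enhancers, and its level at an enhancer generally follows the activity of that enhancer. PAX3-FOXO1 joins the DNA-binding part of PAX3, a regulator of early muscle precursors, to the activating part of FOXO1, and is the driver of fusion-positive rhabdomyosarcoma. The tumour cells express muscle regulators such as MYOD1 and MYOG but do not complete muscle differentiation. MYOD1 and its relatives bind the E-box, and muscle differentiation is accompanied by rising sarcomere proteins and by the muscle microRNAs miR-1, miR-133 and miR-206.

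Genes were assigned to peaks with hg19 gene positions written from general knowledge, because no annotation of that build was at hand. These positions were checked against RefSeq on GRCh38.p14 for chromosome, order and length, and 179 of 183 genes were placed. Distances from genes are therefore approximate, and a gene named beside a peak is the gene it lies in or near, not a shown target. A peak is said to have fallen or risen where the edgeR quasi-likelihood test gave a Benjamini-Hochberg adjusted p under 0.05 over all tested peaks. Levels are CPM, counts scaled to the library's total and by TMM, and the DMSO and 24 h libraries are always given in the order A, B.

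Among regions made by joining peaks within 12.5 kb and holding at least 5 gains, MIR1-1HG on chromosome 20 was the one in which every peak rose. It is the host transcript of MIR1-1 and MIR133A2. The mature microRNAs of this host are shown from RefSeq, with miR-206 from chromosome 6 for comparison, because all 6 peaks of the host rose while the MIR206 locus had no peak that passed the test. Capitals mark the seed, bases 2 to 8, which is the same in miR-1-3p and miR-206 and another in miR-133a-3p.
hsa-miR-1-3p: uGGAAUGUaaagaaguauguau
hsa-miR-206: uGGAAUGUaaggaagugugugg
hsa-miR-133a-3p: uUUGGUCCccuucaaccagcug

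Promoter sequence is shown for 3 genes whose start carried a peak that changed, MIR1-1HG and SMYD1 among the gains and PRDM12 among the losses. Each run is the 250 bases before the gene's start, on the gene's strand, from RefSeq on GRCh38.p14. The E-box was searched as CANNTG, which reads the same on both strands, and capitals mark each match. MIR1-1HG held matches at 137 (CAGCTG) and 72 (CACTTG) bases before the start, SMYD1 held 1 at 170 (CACTTG), and PRDM12 held 0. Of 27305 promoters of this length in the table, 62.2% held CANNTG and 13.8% held CAGCTG, the form most associated with MYOD1 and MYOG. A match of these letters is a description and not a binding site.
MIR1-1HG: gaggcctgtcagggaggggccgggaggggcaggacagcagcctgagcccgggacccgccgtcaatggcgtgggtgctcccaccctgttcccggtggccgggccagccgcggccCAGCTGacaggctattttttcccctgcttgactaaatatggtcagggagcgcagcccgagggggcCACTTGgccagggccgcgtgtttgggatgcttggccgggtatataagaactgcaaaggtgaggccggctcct
SMYD1: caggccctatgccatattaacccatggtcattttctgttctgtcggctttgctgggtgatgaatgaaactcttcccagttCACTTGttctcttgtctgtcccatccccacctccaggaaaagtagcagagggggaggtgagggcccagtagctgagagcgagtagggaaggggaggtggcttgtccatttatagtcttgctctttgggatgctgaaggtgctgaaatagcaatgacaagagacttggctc
PRDM12: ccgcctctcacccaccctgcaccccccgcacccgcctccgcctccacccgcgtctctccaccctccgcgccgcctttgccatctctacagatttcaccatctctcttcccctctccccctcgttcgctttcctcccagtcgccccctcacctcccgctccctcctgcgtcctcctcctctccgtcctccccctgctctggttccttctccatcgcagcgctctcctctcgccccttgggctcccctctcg

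The 8 libraries held between 3540104 and 5001652 counts in peaks, with a median of 48 to 69 counts per peak. The DMSO libraries differed from each other by little more than sampling noise (chi-square per degree of freedom 1.06), as did the 24 h libraries (1.07). The filter on low counts kept 41791 peaks and left out 276. Defining muscle genes carried the mark: the start of MYOD1 reached 205 and 209 CPM in DMSO, that of MYOG 109 and 107, and that of FGFR4 83.7 and 89.2, while the MYF5 peak held 2.56 and 5.97. Of 8 marker genes of other cell types, PTPRC, KRT5 and ALB had 0 peaks within 10 kb, and the remaining 5 had 10 peaks in all. The strongest of these held 72.0 and 68.5 CPM in DMSO about 5.9 kb from GFAP. Others held 56.1 and 55.97 about 5.5 kb from LYZ and 32.4 and 31.8 inside EPCAM, all above the MYF5 peak. Near INS the strongest peak had a mean of 33.5 CPM over the 8 libraries. A peak within 10 kb may belong to a neighbouring gene, and whether other cells were present was not tested. The H3K27ac table holds no measure of the fusion protein, so its loss was not checked here.

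After 24 h of dTAG47, 2040 peaks had fallen and 1448 had risen, which is 4.88% and 3.46% of the tested peaks. Losses had a median log2 change of -0.76 (0.591 times DMSO) and gains one of 0.74 (1.67-fold). The median level went from 20.9 to 11.99 CPM in the lost peaks and from 11.1 to 18.4 CPM in the gained ones. Changes past 2-fold were seen in 536 (26.3%) of the losses and 302 (20.9%) of the gains, whereas 612 losses (30%) and 414 gains (28.6%) were under 1.5-fold. Both 24 h libraries lay below both DMSO libraries in 2038 of the 2040 losses and above them in all 1448 gains. Over all tested peaks the same separation occurred in 25.1% in the lower and 25% in the higher direction, so separation of the libraries alone does not single out a peak.

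The number of changed peaks depended on the test. DESeq2 on the same libraries called 392 peaks lower (0.996%) and 93 higher (0.236%), leaving aside 2431 peaks for which it gave no adjusted p. With 1 library left out, edgeR called between 1058 and 1212 lower peaks and between 573 and 751 higher peaks. The lowest of these counts came without DMSO B for the losses and without DMSO A for the gains.

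**Figure D1:**
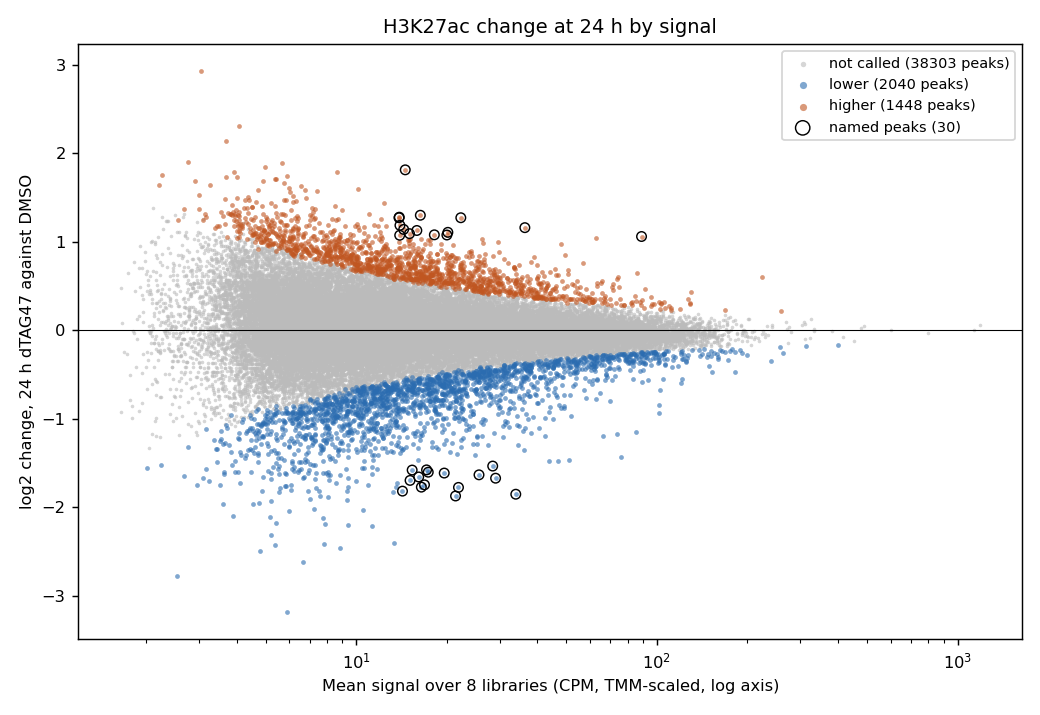
Each point is one of 41791 tested peaks, with its mean signal over 8 libraries (CPM, log axis) against its log2 change between 24 h of dTAG47 and DMSO. Blue points are the 2040 peaks that fell, orange points the 1448 that rose, and circles the 30 named peaks, whose log2 changes run from -1.87 to 1.81.

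Losses and gains were spread unevenly over signal strength and over the genome. With the peaks cut into 10 equal classes of signal, 5.82% fell and 1.87% rose in the strongest class, whereas the shares were 2.56% and 3.11% in the weakest. In the sixth class they were nearly even, at 5.70% lower and 5.43% higher. Across the 23 chromosomes with at least 500 tested peaks, the share that fell ran from 2.65% on chromosome 13 to 6.54% on chromosome 9. The share that rose ran from 1.17% on chromosome 18 to 5.61% on chromosome 20, where it exceeded the 4.77% that fell.

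Peaks that changed tended to have neighbours changed the same way. Peaks within 12.5 kb of the next were joined into regions, which can be far wider, such as 98.8 kb at ALX4. Of 1399 lost peaks that shared a region with another tested peak, 654 (46.8%) had another loss and 57 (4.07%) had a gain in that region. Of 1060 gained peaks that shared a region, 480 (45.3%) had another gain in it and 71 (6.70%) had a loss. Among peaks that shared a region and did not pass the test, 11.1% had a loss and 10.1% a gain in it. In all, 1617 regions held losses only, 1116 held gains only and 48 held both. Every peak fell in 100 regions of several peaks, and every peak rose in 37.

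The 15 named losses were the largest log2 changes among peaks of at least median signal whose libraries did not overlap. They fell by 1.54 to 1.87 on the log2 scale, their median level going from 28.3 CPM in DMSO down to 8.27 CPM (edgeR adjusted p at most 1.66e-10). A peak inside COL27A1, a fibrillar collagen gene, at chr9:116984488-116984888 held 32.4 and 32.1 CPM in DMSO and 8.32 and 9.33 CPM at 24 h. Its log2 change of -1.87 (standard error 0.18, edgeR adjusted p = 2.36e-17) was the largest of the named losses. SPG7, the gene of the mitochondrial protease paraplegin, held 2 of the 15. At chr16:89608661-89609061 the SPG7 libraries went from 59.8 and 65.9 to 16.4 and 18.4 CPM, the strongest DMSO signal among these losses. At chr16:89610980-89611380 they went from 44.4 and 43.2 to 13.1 and 15.2 CPM. In each of the 3 peaks the DMSO libraries were at least 2-fold above the 24 h libraries.

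PRDM16, a zinc finger transcription regulator and one of the genes listed as a fusion target, held the third named loss at chr1:3286971-3287371. It carried 26.5 and 20.7 CPM in DMSO and 6.54 and 6.83 CPM at 24 h (log2 change -1.82, standard error 0.21, edgeR adjusted p = 1.10e-12). Of 17 peaks at PRDM16, 4 fell and 0 rose, with 3 of the 4 between 3284720 and 3287371. DESeq2 gave adjusted p-values of 0.54 for the PRDM16 loss at chr1:3230018-3230418 and 0.091 for that at chr1:3285721-3286121. The others passed by DESeq2. A peak inside FAM81A at chr15:59739917-59740317 went from 40.4 and 39.5 to 13.1 and 10.0 CPM, and all 4 peaks at FAM81A fell by the edgeR test. The named FAM81A peak also passed by DESeq2, while the others had DESeq2 adjusted p-values of 0.33, 0.13 and 0.099. PLXDC1, a plexin domain receptor gene, lost signal at chr17:37280270-37280670, from 29.3 and 23.01 to 7.53 and 8.65 CPM. KIRREL3, which encodes a cell adhesion protein, went from 22.8 and 24.7 to 9.51 and 6.14 CPM at chr11:126417411-126417811. STX11, a syntaxin gene of vesicle fusion, went from 45.3 and 51.1 to 18.4 and 14.6 CPM at chr6:144510033-144510433. All of these 24 h libraries were below all DMSO libraries, as the rule for naming the peaks required.

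The other 7 named losses lay between genes. The strongest was between CDC5L and SUPT3H at chr6:44627664-44628064, with 43.6 and 57.1 CPM in DMSO and 16.8 and 14.6 CPM at 24 h. A peak about 35 kb upstream of CAMK1G, a calmodulin-dependent kinase gene, went from 22.5 and 34.1 to 8.72 and 7.74 CPM at chr1:209721628-209722028. Another, about 265 kb upstream of KLF4 toward ACTL7B, went from 25.6 and 27.3 to 9.71 and 6.83 CPM at chr9:110517073-110517473. The remaining 4 lay between FOXD2 and TRABD2B (chr1:48140941-48141341), between CNIH3 and DNAH14 (chr1:224970135-224970535), between PMEPA1 and CIMIP1 (chr20:56646363-56646763) and between PLXNA1 and PRR23E (chr3:126891790-126892190). Their DMSO libraries held between 21.02 and 31.9 CPM and their 24 h libraries between 5.46 and 10.5 CPM. On GRCh38, RefSeq has 0 protein-coding genes that start between the members of each of these pairs.

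**Figure D2:**
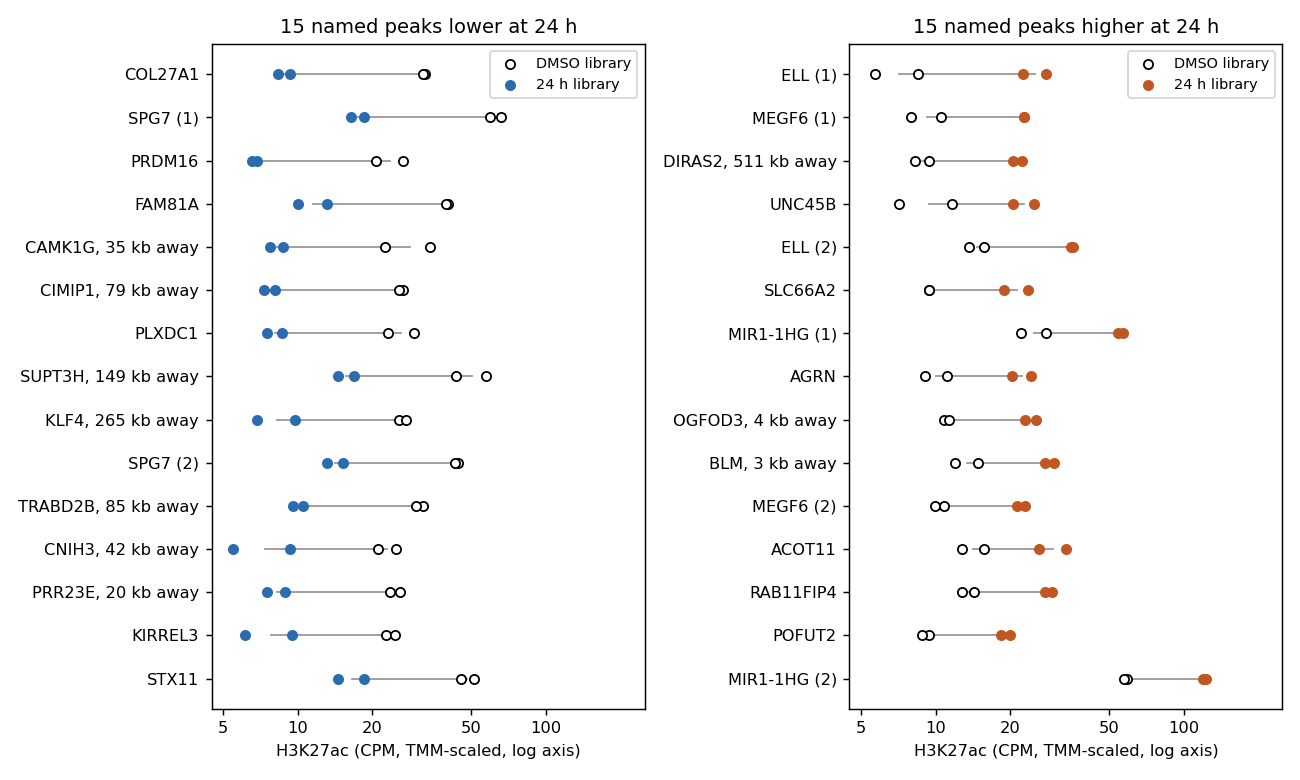
Each row is one named peak, with its DMSO libraries as open circles, its 24 h libraries as filled circles and a line joining the group means (CPM, log axis); rows are ordered by log2 change, and a distance is given where the peak lies outside the gene. In every row the 24 h libraries lie on one side of the DMSO libraries, as the rule for naming them required.

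Loci listed as targets of the fusion in this tumour carried 31 losses and 8 gains among 187 peaks within 10 kb of 28 genes, 16.6% and 4.28%, against 4.88% and 3.46% of all tested peaks. Their median log2 change was -0.06, and that of all tested peaks was 0.00. The list was written from knowledge of this tumour and may hold genes that the study chose on these libraries, so it is not independent evidence of a direction. Losses fell in 12 of the 28 genes. DESeq2 called 16 of the 31 losses and 0 of the 8 gains, and with 1 library left out edgeR called 22 to 24 losses and 2 to 4 gains.

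PRDM12, a developmental transcription regulator, lost 5 of its 6 peaks. The peak at its start, chr9:133540074-133540474, went from 130.1 and 117.6 in DMSO to 43.0 and 49.1 CPM at 24 h (log2 change -1.43, standard error 0.09, edgeR adjusted p = 2.59e-31). The peak just upstream, at chr9:133538929-133539329, went from 80.6 and 88.6 to 28.7 and 32.8 CPM. Further upstream, the peak at chr9:133535360-133535760 went from 80.0 and 72.2 to 27.5 and 27.1 CPM. The 24 h libraries were under 0.5 of the DMSO libraries in these 3 peaks. The sixth peak, at chr9:133547602-133548002, held 12.8 and 15.6 CPM in DMSO with a log2 change of 0.08 (edgeR adjusted p = 0.87). Summed over the 6 peaks, PRDM12 went from 475 and 462 to 199 and 205 CPM. The promoter of PRDM12 shown above is the sequence just before the start peak.

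ASS1, the gene of the urea cycle enzyme argininosuccinate synthase, lies near PRDM12 on chromosome 9 and lost 5 of 10 peaks. At chr9:133355271-133355671 it went from 133 and 135 CPM to 54.3 and 67.6 CPM (log2 change -1.14, standard error 0.09, edgeR adjusted p = 7.57e-25). FGF8, a secreted growth factor gene, lost 4 of 5 peaks. Its strongest peaks went from 147 and 148 to 79.8 and 74.2 CPM at chr10:103529989-103530389 and from 145 and 140 to 77.7 and 80.5 CPM at chr10:103535537-103535937. The peaks nearer the FGF8 start changed less, with log2 changes of -0.38 and -0.28, and neither passed the DESeq2 test. GAS1, a growth arrest gene of the membrane, fell from 55.2 and 54.6 to 24.2 and 26.8 CPM at chr9:89553758-89554158. At the GAS1 start, which held 212 and 221 CPM in DMSO, the log2 change was -0.25. Within FGF8 and GAS1 the larger losses thus lay away from the start.

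PIPOX, a peroxisomal oxidase gene, had losses on both sides of a gain. It went from 70.6 and 65.3 to 37.6 and 36.2 CPM at chr17:27364932-27365332 and from 35.0 and 32.7 to 14.7 and 14.3 CPM at chr17:27378948-27379348. Between these, at chr17:27375919-27376319, PIPOX rose from 52.7 and 41.2 to 61.6 and 58.0 CPM (log2 change 0.35, standard error 0.11, edgeR adjusted p = 0.021). The PIPOX losses passed by DESeq2, but the gain did not (DESeq2 adjusted p = 0.49). ALK, a receptor tyrosine kinase gene, lost 3 of 28 peaks, the largest from 12.2 and 13.4 to 4.56 and 6.83 CPM at chr2:30033868-30034268. TFAP2B (2 of 3 peaks) and GREM1, IGF1R, PITX3 and PODXL (1 each) held the other losses. None of these passed by DESeq2, with adjusted p-values from 0.18 at TFAP2B to 0.60 at IGF1R. The IGF1R call held under 2 of the 3 other scalings. FGFR4, the fibroblast growth factor receptor known as a fusion target, had 9 peaks and 0 that passed the test. Its start peak held 83.7 and 89.2 CPM in DMSO and 77.1 and 78.5 CPM at 24 h (log2 change -0.15, edgeR adjusted p = 0.32).

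Among the listed fusion targets the gains were 3 peaks at CDH15 and 1 each at MYCN, SOX8, DAPK1, RASSF4 and PIPOX. CDH15 encodes M-cadherin, an adhesion protein of muscle cells. Its start peak held 138 and 136 CPM in DMSO and did not pass the test (log2 change 0.01). Inside CDH15, at chr16:89240038-89240438, the level rose from 59.5 and 61.9 to 86.4 and 78.9 CPM (log2 change 0.45, standard error 0.09, edgeR adjusted p = 0.00024). MYCN, the oncogenic transcription factor gene, rose at its start from 61.8 and 66.2 to 88.0 and 69.8 CPM, with the 24 h libraries further apart than the DMSO ones. That MYCN call held in 1 of 4 fits with a library left out.

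Over all peaks, 9 joined regions held at least 5 losses, and the regions at ASS1 (6 of 13 peaks) and PRDM12 (5 of 6) are among them. Of the other 7, the one between CDC5L and SUPT3H, chr6:44623502-44650409, held 7 losses among 10 peaks, and its summed level went from 365 and 384 to 258 and 256 CPM. POLR1A, the gene of the largest subunit of RNA polymerase I, lost all 5 peaks of the region chr2:86254698-86275285, which went from 196 and 209 to 110 and 110 CPM. DESeq2 gave adjusted p-values of 0.063 at chr2:86262906-86263306 and 0.32 at chr2:86274885-86275285. The other POLR1A losses of the region passed by DESeq2. The POLR1A start peak itself had a log2 change of -0.19 and did not pass the test. TMCO4 lost 5 of 6 peaks in chr1:20084456-20096695, from 263 and 289 to 175 and 164 CPM. Those at chr1:20084456-20084856 and chr1:20085866-20086266 had DESeq2 adjusted p-values of 0.47 and 0.55, and the other TMCO4 losses there passed. LFNG, which encodes a glycosyltransferase acting on Notch, held 6 losses among the 18 peaks of its region. The 3 of them within 10 kb of LFNG had log2 changes of -0.32, -0.35 and -0.41. None of these 3 passed by DESeq2 (adjusted p 0.47, 0.57 and 0.41). CHSY1 (chondroitin synthase) and SLC45A1 held 5 each, as did a region near GPR78.

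The 15 named gains rose by 1.06 to 1.81 on the log2 scale, from a median of 10.4 in DMSO to 24.2 CPM at 24 h (edgeR adjusted p at most 6.28e-05). ELL, the gene of a transcription elongation factor, held the first and the fifth of them near its distal end. At chr19:18555225-18555625 the level rose from 5.69 and 8.52 to 22.6 and 27.8 CPM (log2 change 1.81, standard error 0.21, edgeR adjusted p = 1.87e-12). At chr19:18554345-18554745 it rose from 15.7 and 13.6 to 35.1 and 35.7 CPM. Farther inside ELL, a peak at chr19:18571246-18571646 also rose (log2 change 0.71, held in 2 of 4 fits with a library left out). Another ELL peak, at chr19:18589373-18589773, fell from 22.2 and 19.04 to 14.9 and 12.97 CPM (log2 change -0.56, edgeR adjusted p = 0.030), a call that held in 0 of the 4. The ELL start peak, with 63.2 and 58.8 CPM in DMSO, had a log2 change of -0.19 and did not pass the test. MEGF6, a gene of epidermal growth factor repeats, held another 2 named gains, from 7.97 and 10.5 to 22.8 and 22.8 CPM at chr1:3446127-3446527 and from 10.8 and 9.94 to 21.4 and 22.98 CPM at chr1:3469813-3470213. As at ELL, the MEGF6 start peak did not pass the test (log2 change -0.14).

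UNC45B, the chaperone that folds muscle myosin, gained at its start, chr17:33474998-33475398. The level rose from 7.12 and 11.7 in DMSO to 20.6 and 25.0 CPM at 24 h (log2 change 1.27, standard error 0.20, edgeR adjusted p = 3.69e-07). The other 4 peaks at UNC45B did not pass the test. AGRN, which encodes agrin, the organiser of the neuromuscular junction, rose from 9.11 and 11.1 to 20.4 and 24.3 CPM at chr1:966945-967345. This was the 1 of 5 peaks at AGRN that rose. The peak near the AGRN start, with 34.2 and 39.5 CPM in DMSO, did not pass the test (log2 change -0.08). Named gains also lay inside SLC66A2, ACOT11 (an acyl-CoA thioesterase gene), RAB11FIP4 (a membrane traffic gene) and POFUT2 (a protein O-fucosyltransferase gene). The 24 h libraries of these 4 peaks held between 18.4 and 33.5 CPM and the DMSO libraries between 8.81 and 15.7 CPM. POFUT2 was the only one of the 30 named peaks to miss the threshold in any alternative, with an adjusted p of 0.054 by DESeq2. The last 3 named gains lay between GADD45G and DIRAS2 (chr9:92860699-92861099), between UTS2R and OGFOD3 (chr17:80342530-80342930) and between BLM and FURIN (chr15:91362086-91362486). Of 8 peaks at OGFOD3, 4 rose.

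MIR1-1HG held the other 2 named gains, and all 6 of its peaks rose. At its start, chr20:61147999-61148399, the level went from 27.9 and 22.2 to 57.0 and 54.6 CPM (log2 change 1.16, standard error 0.13, edgeR adjusted p = 1.02e-13). At chr20:61155329-61155729 it went from 58.9 and 57.7 to 123 and 120 CPM (log2 change 1.06, standard error 0.09, edgeR adjusted p = 1.74e-21). The 24 h means were 2.23 and 2.08 times the DMSO means, and the second peak had the highest level of the 15 named gains. The log2 changes of the other 4 were 0.65, 1.04, 0.97 and 0.76 in order along the chromosome. Summed over the region chr20:61147999-61167240, the level rose from 257 and 243 to 472 and 477 CPM. All 6 passed with each library left out in turn, under each scaling tried and by DESeq2, where the largest adjusted p was 0.028. The region contains the precursors of miR-1-3p and miR-133a-3p, whose sequences open the results. At MIR206 and MIR133B on chromosome 6, with 2 and 3 peaks within 10 kb, 0 passed the test, and MIR1-2 and MIR133A1 had 0 peaks in that range. H3K27ac does not measure the microRNAs themselves.

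**Figure D3:**
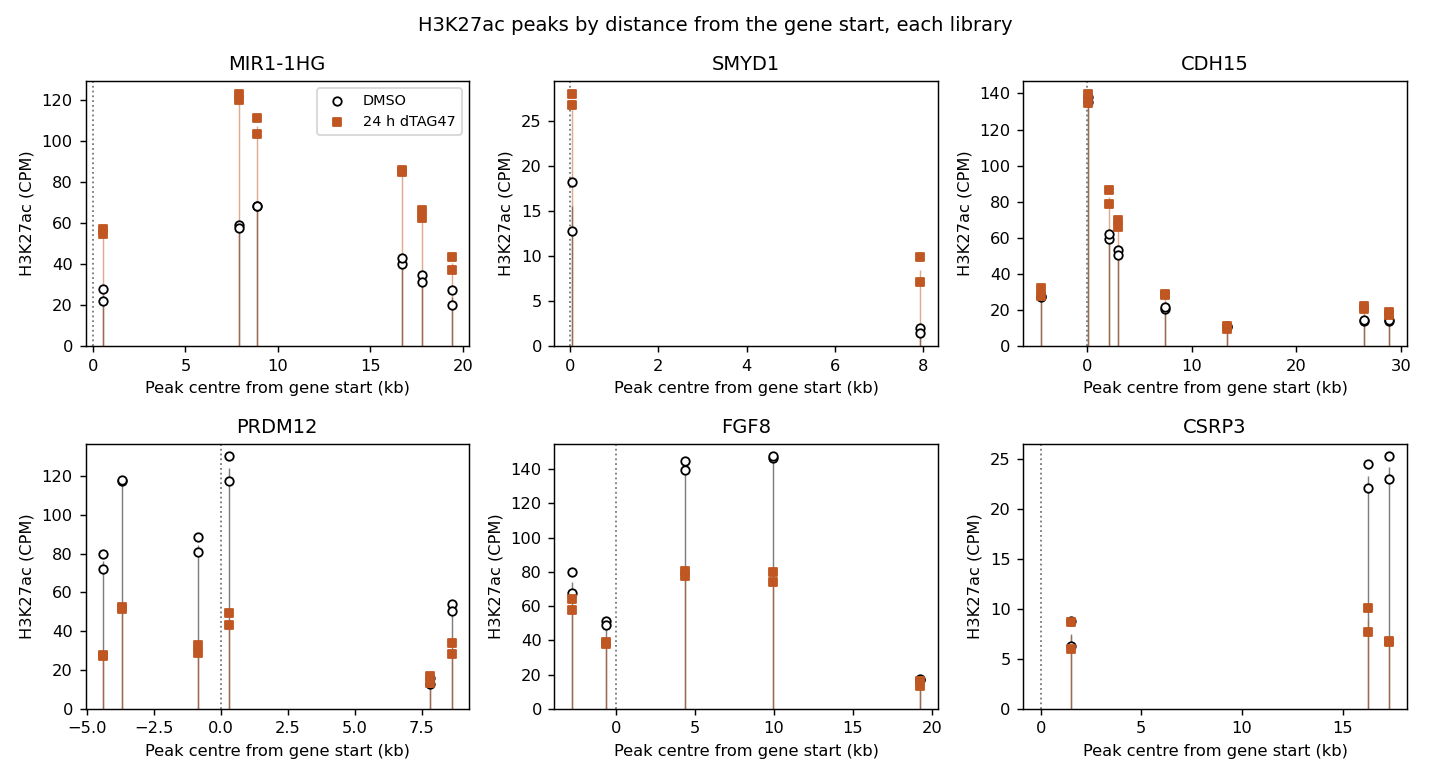
Each panel shows the peaks within 10 kb of one gene, by the distance of the peak centre from the gene start (kb) and the level in each library (CPM); open circles are DMSO, filled squares 24 h of dTAG47, and vertical lines reach the group means. MIR1-1HG is higher at all 6 peaks and SMYD1 at both, CDH15 is higher inside the gene but not at its start, and PRDM12, FGF8 and CSRP3 are lower at 5, 4 and 2 peaks.

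By the edgeR test, genes of the sarcomere and of contraction carried more gains than losses. Of 99 peaks within 10 kb of 33 genes with a peak, 18 (18.2%) rose and 4 (4.04%) fell, against 3.46% and 4.88% of all tested peaks. The median log2 change was 0.17, and 66 of the 99 were positive. The list was chosen with earlier results of these data known, so it is not independent evidence of a direction. The gains lay in 13 genes, and 9 of the 28 peaks at a gene start rose while 0 fell. The share of start peaks that rose over all genes was not computed, so this count is a description. Under other scalings 18 to 21 rose. With 1 library left out 8 to 10 rose, and 3 of the 18 (at UNC45B, SMYD1 and CACNA1S) passed in all 4 such fits. DESeq2 called 1 of the 18, at UNC45B, and gave no adjusted p for another. It called 3 of the 4 losses, so by that test gains did not outnumber losses.

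SMYD1, a methyltransferase gene of striated muscle, rose at both of its peaks. At its start, chr2:88367151-88367551, the level went from 12.8 and 18.2 to 26.7 and 27.98 CPM (log2 change 0.82, standard error 0.17, edgeR adjusted p = 0.00014), the promoter shown above. At chr2:88375034-88375434, inside SMYD1, it went from 1.99 and 1.42 to 9.91 and 7.05 CPM (log2 change 2.31, standard error 0.38, edgeR adjusted p = 1.03e-06), a change that rests on a low DMSO level. CACNA1S, the calcium channel that senses voltage in skeletal muscle, rose at its start from 15.7 and 14.2 to 26.2 and 27.1 CPM (chr1:201081227-201081627). MYL1, a fast myosin light chain gene, rose from 3.42 and 5.40 to 11.9 and 8.64 CPM at chr2:211152316-211152716. These 4 peaks showed no overlap between groups, which was so in all 1448 gains and, in the higher direction, in 25% of all tested peaks. DESeq2 gave adjusted p-values of 0.081 for the SMYD1 start, 0.053 for CACNA1S and 0.23 for MYL1. It gave no adjusted p for the SMYD1 peak inside the gene.

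Gains also lay at other sarcomere genes. TNNC2, the fast troponin C gene, rose at 2 peaks, from 21.6 and 20.5 to 33.1 and 31.2 CPM at chr20:44455452-44455852 and from 14.2 and 14.8 to 22.2 and 22.98 CPM at chr20:44451576-44451976. TNNI2, fast troponin I, rose at both peaks at its start, the first from 53.8 and 45.7 to 67.8 and 65.5 CPM. MB, the myoglobin gene, rose from 15.1 and 18.5 to 24.8 and 25.5 CPM. DES, the desmin gene of the muscle intermediate filament, rose at its start from 77.7 and 77.3 to 94.7 and 98.3 CPM (log2 change 0.31). ACTC1, cardiac actin, rose at 2 peaks, by 0.35 and 0.50 on the log2 scale, and TNNT3, RYR1, LDB3 and ACTN2 rose at 1 peak each. ACTA1, skeletal actin, held 23.9 and 23.6 CPM in DMSO and 29.9 and 33.7 CPM at 24 h, just short of the threshold (log2 change 0.42, edgeR adjusted p = 0.0502). CKM, MYH3 and TNNT2 had 0 peaks that passed, and MYH1, MYH2 and MYH4 had 0 peaks.

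The 4 losses on the sarcomere list lay in TTN, the titin gene, and CSRP3, a muscle LIM protein gene. In TTN, at chr2:179629242-179629642, the level fell from 9.68 and 10.5 to 1.98 and 2.05 CPM (log2 change -2.31, standard error 0.34, edgeR adjusted p = 2.70e-08). At CSRP3 it fell from 23.1 and 25.3 to 6.74 and 6.83 CPM at chr11:19206070-19206470 and from 24.5 and 22.2 to 10.1 and 7.74 CPM at chr11:19207106-19207506. These 3 peaks also passed by DESeq2. The TTN and CSRP3 losses lay away from the gene starts, where the TTN peak at chr2:179671896-179672296 had a log2 change of 0.18 and did not pass.

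Of 40 peaks at 13 genes of myogenic regulators, 5 (12.5%) rose and 2 (5.0%) fell, against 3.46% and 4.88% of all tested peaks. The lower share was thus near that of all peaks, and the median log2 change was 0.08. This list too was chosen with earlier results of these data known. MYOD1, the master regulator of the muscle lineage, fell at both peaks at its start, from 79.7 and 77.0 to 63.0 and 63.5 CPM at chr11:17740416-17740816 and from 205 and 209 to 173 and 182 CPM at chr11:17741436-17741836. The MYOD1 log2 changes were -0.31 (edgeR adjusted p = 0.019) and -0.22 (edgeR adjusted p = 0.018). MYMK, the gene of myomaker, the membrane protein by which myoblasts fuse, rose from 70.6 and 71.6 to 94.5 and 91.9 CPM at chr9:136392931-136393331. VGLL2, a TEAD cofactor of skeletal muscle, rose at its start from 43.0 and 54.0 to 65.6 and 62.6 CPM and at 1 more peak, and MEF2D rose at 2 peaks inside the gene. MYOG, the differentiation regulator myogenin, held 109 and 107 CPM in DMSO and 113 and 115 CPM at 24 h at its start, and 0 of its 4 peaks passed. DESeq2 called 0 of these 7 changes, and with 1 library left out 1 to 4 peaks of the list were higher and 0 to 1 lower. Only the MYMK call held in all 4 fits with a library left out.

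**Figure D4:**
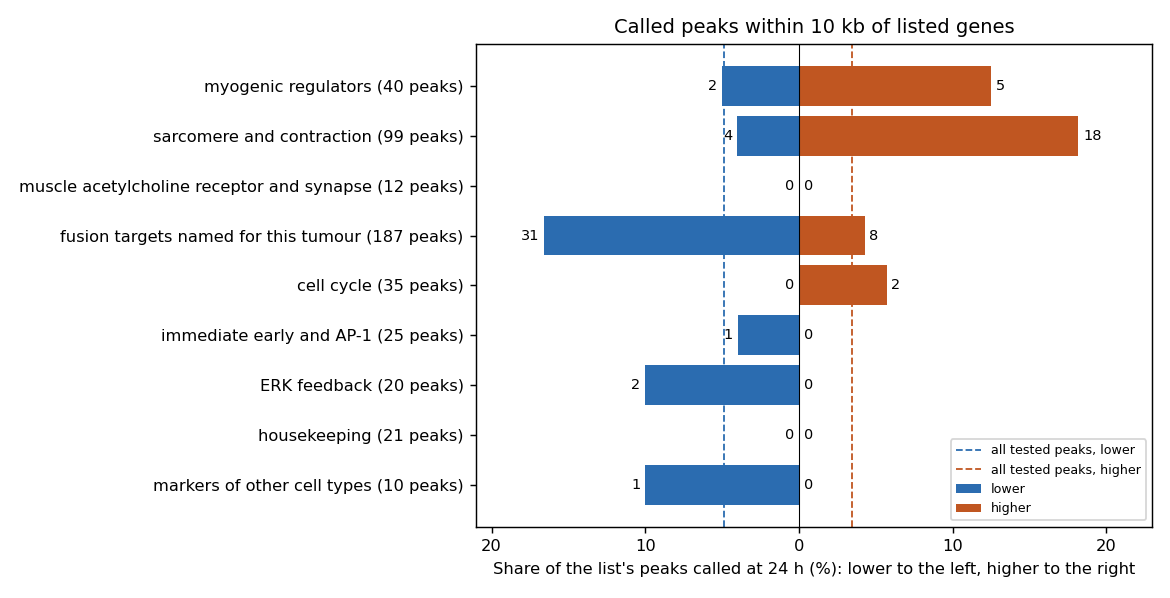
Bars give the share (%) of the peaks within 10 kb of each list's genes that fell (blue, to the left) or rose (orange, to the right) at 24 h, with the number of peaks at the end of each bar; dashed lines mark the 4.88% and 3.46% of all tested peaks. The sarcomere list shows 18 gains and 4 losses and the fusion target list 31 losses and 8 gains, while the receptor and housekeeping lists show 0.

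The muscle acetylcholine receptor genes and their synaptic partners had 12 peaks, 0 of which passed the test, with a median log2 change of 0.12. Of 35 peaks at cell cycle genes, 2 (5.71%, against 3.46% of all tested peaks) rose: 1 at CCND3, a cyclin gene, from 9.39 and 10.2 to 14.3 and 18.2 CPM, and 1 upstream of CDKN1A, the gene of the inhibitor p21, from 9.39 and 5.68 to 13.1 and 13.7 CPM. CDK4, whose start peak held 787 and 806 CPM in DMSO, had a log2 change of -0.03. Of 20 peaks at genes of ERK feedback, 2 (10%, against 4.88%) fell, both at DUSP6, a phosphatase that limits ERK. The DUSP6 start went from 121 and 119 to 82.0 and 81.4 CPM (log2 change -0.55, standard error 0.08, edgeR adjusted p = 3.04e-08). DESeq2 called 1 of these 2 losses, the one at the start. The other DUSP6 loss, at chr12:89739605-89740005 (log2 change -0.59), had a DESeq2 adjusted p of 0.32. Of 25 peaks at immediate early genes 1 (4%, against 4.88%) fell, at JUN, and of 21 at housekeeping genes 0 passed. Among the markers of other cell types EPCAM fell, from 32.4 and 31.8 to 25.2 and 20.2 CPM, 1 of the 10 peaks of that list. The calls at CCND3, CDKN1A, JUN and EPCAM each held in 1 of 4 fits with a library left out, and DESeq2 gave them adjusted p-values of 0.44, 0.42, 0.48 and 0.42. Shares over so few peaks are a description of these peaks.

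Joined regions with at least 5 gains numbered 7. Besides MIR1-1HG they lay over RASD1 and PEMT on chromosome 17 (6 of 18 peaks), between OTOS and GPC1 on chromosome 2 (6 of 9), and at SLC12A7 (6 of 11), a potassium chloride cotransporter gene. MEGF6 (5 of 9), PACS2 (5 of 10) and ALX4 (5 of 16), a homeobox gene, completed the set. The MIR1-1HG summed level rose by a larger ratio than that of the other 6. The RASD1 region went from 552 and 542 to 677 and 700 CPM and the MEGF6 region from 134 and 139 to 203 and 200 CPM. The ALX4 region had the smallest ratio, from 336 and 338 to 400 and 396 CPM.

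The earlier times share the DMSO libraries with the 24 h comparison, so their values are given side by side and not as separate support. At 2 h 1.03% of the tested peaks were lower and 0.194% higher than in DMSO, and at 4 h 1.67% were lower and 0.567% higher. Of the 2040 losses of 24 h, 349 passed the test at 2 h and 557 at 4 h, and of the 1448 gains 47 and 138 did. Of the 15 named losses 10 had passed at 2 h and 14 at 4 h, while of the 15 named gains 2 and 4 had. The intergenic CNIH3 peak was the named loss that passed at neither time, with log2 changes of -0.11 at 2 h and -0.34 at 4 h.

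Tested directly, 0.68% of peaks were lower and 0.438% higher at 24 h than at 4 h. Of the named losses 5 of 15 were lower at 24 h than at 4 h, and of the named gains 12 of 15 were higher. The named peaks were chosen for a large change at 24 h and the same 24 h libraries enter this test, so the choice favours these directions and the counts are a description. SPG7, at chr16:89608661-89609061, held 33.6 and 29.7 CPM at 2 h and 23.2 and 24.6 CPM at 4 h, so most of its loss was present by 4 h. At UNC45B the libraries held 13.5 and 10.9 CPM at 2 h and 10.4 and 11.9 CPM at 4 h, close to the DMSO level, and the change from 4 h to 24 h was 1.02 on the log2 scale (standard error 0.19, edgeR adjusted p = 0.00035). ACOT11 likewise had log2 changes of 0.03 at 2 h and -0.01 at 4 h against 1.08 at 24 h. The stronger MIR1-1HG peak, at chr20:61155329-61155729, had already passed at 2 h (83.9 and 84.1 CPM) and 4 h (92.2 and 91.8 CPM).

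**Figure D5:**
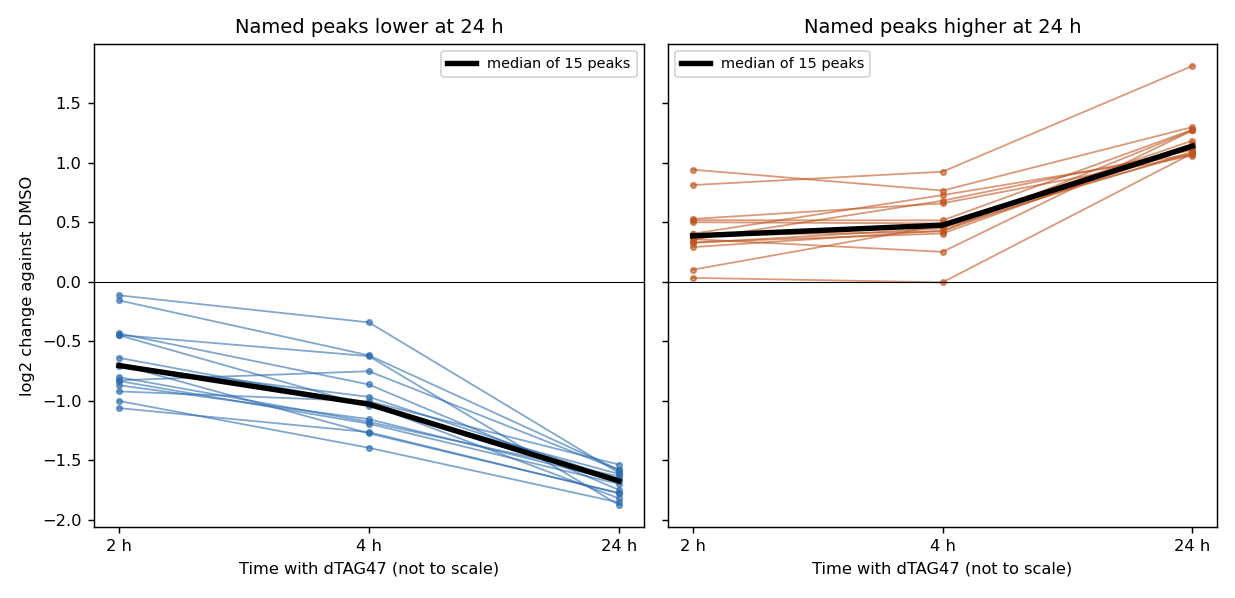
Log2 change against DMSO at 2 h, 4 h and 24 h of dTAG47 (time axis not to scale) for the 15 named losses (left) and the 15 named gains (right); thin lines are peaks and the thick line their median. The peaks were named by their 24 h change, and that choice fixes the 24 h points; at 4 h 14 of the losses and 4 of the gains had passed the test.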

How the data were processed

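The authors deposited a table of raw read counts per peak window, with 8 H3K27ac columns, per the file headers and its whole-number values. Per the submitters' processing notes, Trimmomatic 0.32, Bowtie2, MACS2, DiffBind and DESeq2 were used with the builds hg19 and dm3, and the notes assign them no roles. Spike-in reads were not analysed here, so a change common to all peaks cannot be seen. Of the windows, 42065 are 400 bases wide between start and end as deposited, and whether starts count from 0 or 1 is not stated.

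The test was edgeR 4.0.16 (R 4.3.3): filterByExpr (minimum count 10, minimum total 15), TMM, and 1 robust quasi-likelihood fit of 4 groups of 2 libraries, with Benjamini-Hochberg adjustment and a threshold of 0.05. The common dispersion was 0.00108 (biological coefficient of variation 3.29%), and standard errors and p-values rest mostly on the spread shared by all peaks (median prior degrees of freedom 182). Each standard error was derived from the test, as the absolute log2 change divided by the square root of its F statistic. Columns carry the letters A and B in place of the label numbers, so libraries were not paired in this fit, and 0 columns were left without a group. The procedure was tested on simulated counts.

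Positions of 183 genes on hg19 were written by hand from general knowledge. Against RefSeq on GRCh38.p14, 183 had the same chromosome and order and 156 a length within 10%. MYL4, CHRNE, UTS2R and TRMT44, with length ratios outside 0.5 to 2, were not placed. Peaks within 10 kb of a gene were counted as its peaks, and those within 1000 bases of its start as start peaks. The 9 lists held 125 genes, of which 123 were placed.

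Named peaks are, in each direction, the 15 called peaks with the largest log2 change among those of at least median signal whose 24 h and DMSO libraries did not overlap. For the listed genes, those whose peaks are described were chosen after their values were seen. The members, lists and rules were chosen with earlier results of these data known. Alternatives were other scalings (DESeq2 1.42.0 size factors, total counts, offsets that follow abundance), filters, DESeq2's test, a test against a 1.2-fold change, the 24 h and DMSO libraries alone, each library left out, and other windows around genes. For gene lists, leaving out libraries and other scalings were added after seeing the data, as was a fit with the column letter as a block. Sequences come from RefSeq, and 90 of the 125 listed genes had a promoter there.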

Additional observations from a re-analysis of the deposited data

Results flagged for a closer look

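Among 69 peaks examined (the named peaks and, for each listed gene with a change, the changed peak with the largest log2 change), 21 differed between 24 h and 4 h of dTAG47 when tested directly (edgeR quasi-likelihood test, adjusted over all tested peaks). Over all tested peaks, 0.68% were lower and 0.438% higher at 24 h than at 4 h. All 69 were picked for a change at 24 h that passed the test against DMSO, and the same 24 h libraries enter this test, so the choice favours a difference and the count is a description. The values here are log2 differences of 24 h against 4 h.

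Peaks that were lower at 24 h than at 4 h were those in COL27A1 (-1.25), between CNIH3 and DNAH14 (-1.26), in KIRREL3 (-0.959), in ALK at chr2:30033868-30034268 (-0.954), between PMEPA1 and CIMIP1 (-0.885), between PLXNA1 and PRR23E (-0.828) and upstream of PRDM12 (-0.605). At ALK the change against DMSO was -0.23 at 4 h and -1.18 at 24 h, and at PRDM12 it was -0.87 and -1.48.

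Peaks that were higher at 24 h than at 4 h included muscle loci: SMYD1 inside the gene (1.13), UNC45B at its start (1.02), MYL1 (0.957), and MIR1-1HG at its start (0.754) and at its stronger peak (0.4). ACOT11 (1.08) had no change against DMSO that passed at 4 h. This was so of most named gains, 4 of the 15 having passed at that time. The ELL peaks differed by 0.887 and 0.849, the peak between GADD45G and DIRAS2 by 0.762 and SLC66A2 by 0.716. OGFOD3 (0.697), AGRN (0.664), MEGF6 (0.643) and RAB11FIP4 (0.586) made up the rest.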

How the results depend on the processing

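The columns carry the letters A and B and not the replicate numbers of the labels, so no pairing by those numbers was made. A fit with the letter as a replicate block, added after seeing the data, gave 2087 losses and 1478 gains and changed the call of 0 of the 30 named peaks, and whether a letter pairs libraries is not stated. Each of the 30 named peaks kept its direction in all 13 alternatives, and the one that missed the threshold was POFUT2 under DESeq2. The named peaks were chosen for large changes and for libraries that did not overlap. That choice favours a kept direction, so this count is a description and not a test of them. Over all peaks, other scalings, other filters and a fit of the 24 h and DMSO libraries alone gave 1712 to 2258 losses and 1278 to 1646 gains. With total counts in place of TMM, losses were 52.8% of the calls against 58.5%. DESeq2 gave 392 losses and 93 gains, a test against a 1.2-fold change gave 926 and 472, and leaving out 1 library gave 1058 to 1212 losses and 573 to 751 gains. Fewer libraries enter the fits that leave one out, and the lone library of a group is then assumed to vary like the other groups. The cause of the lower DESeq2 counts was not tested.

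For the gene lists, with DESeq2 the myogenic regulators had 0 lower and 0 higher peaks and the fusion targets 16 lower and 0 higher. On the sarcomere list DESeq2 called 1 peak higher, and it called 3 of the 4 edgeR losses. By the same test the cell cycle had 0 higher, the immediate early genes 0 lower, ERK feedback 1 lower and the markers of other cell types 0 lower. With the gene alone as the window, the myogenic regulators had 1 lower, the fusion targets 20 lower, the cell cycle 1 higher and ERK feedback 1 lower. With 50 kb on each side, the myogenic regulators had 10 higher, the sarcomere list 12 lower and 28 higher, the acetylcholine receptor list 1 higher, the cell cycle 1 lower, the immediate early genes 2 lower and 1 higher, ERK feedback 5 lower, housekeeping 1 lower and 3 higher, and the markers of other cell types 2 higher. Offsets that follow abundance gave 1 lower for the myogenic regulators, 1 higher for the acetylcholine receptor list and 4 higher for the cell cycle. Leaving out 1 library gave 0 to 1 lower and 1 to 4 higher for the myogenic regulators, 8 to 10 higher for the sarcomere list, and 2 to 4 higher for the fusion targets. It gave 0 to 1 higher for the cell cycle, 0 to 2 lower for the immediate early genes, 1 lower for ERK feedback and 0 to 1 lower for the markers of other cell types. In the weakest of 10 equal classes of peaks, with a median of 4.34 CPM, 2.56% fell and 3.11% rose, and the part of depth in these shares was not tested.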
